A study of Homo sapiens with 4 samples.

Results

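The genes described here are the interferon receptor chains, the shared chain IL10RB and the genes that switch cytokine signals off again, in RNA-seq of MV4-11 cells. All RefSeq rows whose symbol is IFNAR1, IFNAR2, IFNGR1, IFNGR2, IL10RB, SOCS1, SOCS2, SOCS3, CISH or PTPN6 were taken, which gave 10 genes with 22 transcripts out of 16490 genes with 28581 transcripts that have values. MV4-11 is a human acute myeloid leukemia (AML) line of monoblast type that carries a KMT2A fusion and an internal tandem duplication of FLT3. By the paper's methods the cells were infected with lentivirus and selected with puromycin. The hairpins against CEBPG were in the vector pLKO.1-puro, and the paper does not name the vector of the control hairpin. There were 2 libraries with the control hairpin sh-NC (labelled as CEBPG presence) and 2 with the hairpin sh-CEBPG#3 (labelled as CEBPG knockdown). Each group is thus a selected pool with 1 hairpin, and an effect of that hairpin other than on CEBPG cannot be told apart from the knockdown. Whether the libraries within a group stem from separate infections is not given in the sources used here, so the p-values measure the spread between these libraries, which may be technical.

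Type I interferons signal through IFNAR1 and IFNAR2, and interferon gamma through IFNGR1 and IFNGR2, which pass the signal through the kinases JAK1, JAK2 and TYK2 to STAT proteins and IRF9. IL10RB is the second chain of the receptors for IL-10, IL-22, IL-26 and the type III interferons. SOCS1 and SOCS3 inhibit JAK kinases directly, whereas CISH and SOCS2 are classical targets of STAT5 and dampen the receptors that activate it. PTPN6 encodes SHP-1, a phosphatase of blood cells that removes phosphate from JAKs and receptors. FLT3 with an internal tandem duplication is known to keep STAT5 active in AML cells.

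The promoter of CISH is shown first, because CISH had the largest decrease of the 10 genes and its promoter holds the motif that STAT proteins bind. The letters TTCNNNGAA, which read the same on both strands, were searched in windows from 250 bases before to 50 bases after each RefSeq transcription start (GRCh38.p14). The 250 bases before the CISH start, chr3:50611775-50612024 on the minus strand, are printed 5′ to 3′ with the matches in capitals.

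CISH: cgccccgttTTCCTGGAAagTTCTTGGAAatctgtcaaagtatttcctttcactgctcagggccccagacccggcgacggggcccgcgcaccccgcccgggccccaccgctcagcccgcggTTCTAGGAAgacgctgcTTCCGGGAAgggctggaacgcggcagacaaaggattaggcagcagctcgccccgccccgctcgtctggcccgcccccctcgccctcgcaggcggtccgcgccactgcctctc

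This window held 4 matches, which begin 241, 230, 129 and 112 bases before the start. Of 35116 windows of all genes, 7.66% held at least 1 match and 7 windows held 4 or more. Windows were at hand for 8 of the 10 genes (12 windows), while SOCS2 and IFNAR2 had none. The only other match was in IL10RB, just after its start, at chr21:33266372-33266392 on the plus strand.

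IL10RB: cgctggTTCCCGGAAgccgcc

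The letters GAAA, any 2 bases and GAAA again, a core of the interferon-stimulated response element, were searched on both strands too, and 3.57% of all windows held them. SOCS1 had the only match among the 12 windows, 113 bases before its start, and the 250 bases upstream (chr16:11256205-11256454, minus strand) are printed with this match in capitals because SOCS1 was among the genes that fell.

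SOCS1: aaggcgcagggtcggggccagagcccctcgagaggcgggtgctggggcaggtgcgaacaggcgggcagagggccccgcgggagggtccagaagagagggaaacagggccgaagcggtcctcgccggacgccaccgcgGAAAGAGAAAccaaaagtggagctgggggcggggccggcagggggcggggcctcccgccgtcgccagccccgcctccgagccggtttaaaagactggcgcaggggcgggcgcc

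Neither the C/EBP palindrome TTGCGCAA (0.151% of all windows) nor the letters TGATGCAAT bound by dimers of C/EBP proteins with ATF4 (0.236%) occurred in the 12 windows, which cover 8 of the 10 genes. A match is a description of the letters and not a binding site.

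Levels are in FPKM (fragments per kilobase of transcript, scaled to the mapped fragments of a library), summed over the transcripts of a gene. Fold changes are differences of log2(FPKM + 1) between sh-CEBPG#3 and sh-NC, fitted with limma over the genes whose mean reached 0.5 FPKM, and p-values were adjusted over all of these. In bulk RNA fewer cells that express a gene and less RNA per cell cannot be told apart. Between the libraries the FPKM totals ranged from 364353 to 389766, and no library stood apart, with Pearson's r across the genes tested of 0.993 and 0.994 within the groups and 0.962 to 0.964 between them. CEBPG itself, the targeted gene, had 30.4 and 33.6 FPKM in sh-NC against 19.2 and 17.1 FPKM after knockdown and fell to 56.8% of the sh-NC level (log2 fold change -0.78, SE 0.09, adjusted p = 8.88e-05). All 12 monoblast markers had values, and their summed level was 1000.4 and 1089 FPKM in sh-NC and 3686 and 3507 FPKM in sh-CEBPG#3. Most of this sum is LYZ, and the other 11 summed to 434 and 479 FPKM in sh-NC and 560.3 and 525 FPKM in sh-CEBPG#3. Of the 12 markers 6 rose and 3 fell at an adjusted p under 0.05, against 18.5% of all genes called higher and 23.8% called lower. The higher ones were LYZ (log2 fold change 2.37), CSF1R (0.80), MPO (0.62), CD4 (0.40), CD33 (0.37) and SPI1 (0.33). The lower ones were MEIS1 (-0.87), HOXA9 (-0.36) and HOXA10 (-0.22). Of the markers of other cells, NCAM1, KRT18 and KRT8 were the highest. KRT8 rose from 2.29 and 2.35 FPKM to 6.26 and 6.19 FPKM (log2 fold change 1.12, adjusted p = 1.55e-05). NCAM1 fell from 14.1 and 15.1 FPKM to 12.4 and 11.3 FPKM (-0.28, adjusted p = 0.0260), and KRT18 (8.57 to 10.6 FPKM) was not called. The summed B cell markers CD79A and PAX5 reached at most 2.92 FPKM, and the T cell and erythroid markers were not analysed here. A part of these markers in the changes below was not tested.

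Of the 10 genes, 7 changed at an adjusted p under 0.05, of which 4 were higher (IFNGR2, IL10RB, IFNAR2 and PTPN6) and 3 were lower (CISH, SOCS1 and SOCS2). Among all 12142 genes tested, 42.2% were called in this way, 18.5% higher and 23.8% lower. None of the 10 genes passed an unadjusted p under 0.05 together with an absolute log2 fold change above 1 in limma. Of all genes tested 3.41% did. The libraries of the groups did not overlap for 8 of the 10 genes, against 71.7% of all genes. The median log2 fold change was 0.28 over the 5 receptor chains and -0.36 over SOCS1, SOCS2, SOCS3 and CISH, against -0.04 over all genes tested. IFNGR2, IL10RB, SOCS1 and CISH were called under all 15 alternatives of the processing.

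FPKM is scaled to transcript length, so the levels of the genes can be set side by side. In sh-NC cells PTPN6 was highest with a mean of 96.8 FPKM, which placed it at the percentile 96.0 of all genes tested. It was followed by SOCS2 (54.4 FPKM), IFNGR1 (29.6 FPKM), CISH (19.6 FPKM), IL10RB (17.6 FPKM), SOCS1 (16.6 FPKM), IFNAR2 (15.2 FPKM), IFNGR2 (8.50 FPKM), IFNAR1 (6.94 FPKM) and SOCS3 (2.28 FPKM, percentile 20.6). Only the ranges of the neighbours IL10RB and SOCS1 overlapped in this order. In sh-CEBPG#3 cells IFNAR2 and IFNGR2 lay above CISH and SOCS1, while in sh-NC cells they lay below both.

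Among the receptor chains IFNGR2, the chain that carries JAK2 to the interferon gamma receptor, had the largest increase. It had 9.57 and 7.43 FPKM in sh-NC and 13.2 and 16.1 FPKM in sh-CEBPG#3. Both knockdown libraries were above both controls, although the libraries within each group also differed. The mean rose from 8.50 ± 1.52 to 14.6 ± 2.08 FPKM (SD, n = 2 each), to 172% of the control, with a log2 fold change of 0.72 (SE 0.12, 95% interval 0.44 to 1.00, adjusted p = 0.00126). With 1 library left out in turn the log2 fold change ranged from 0.56 to 0.89. IFNGR2 shares 5031 bp with TMEM50B, which rose from 2.73 and 2.61 FPKM to 4.09 and 3.50 FPKM (adjusted p = 0.0170), and without strand the reads of such a span cannot be told apart.

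IFNGR1, the chain that binds interferon gamma and JAK1, had 28.8 and 30.5 FPKM in sh-NC and 31.98 and 31.1 FPKM in sh-CEBPG#3. The knockdown libraries were slightly higher without overlap, but the log2 fold change of 0.09 did not pass the test (95% interval -0.08 to 0.26, adjusted p = 0.375). With median-of-ratios scaling, which places the median of all genes at -0.001, IFNGR1 passed with 0.13 (adjusted p = 0.0409). The level of IFNGR1 was 3.005 and 4.11 times that of IFNGR2 in sh-NC and 2.43 and 1.93 times in sh-CEBPG#3, so the chains lay closer together in both knockdown libraries.

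IL10RB had 16.7 and 18.4 FPKM in sh-NC and 22.7 and 23.0 FPKM in sh-CEBPG#3. Its mean rose from 17.6 ± 1.19 to 22.8 ± 0.168 FPKM (SD, n = 2 each), with a log2 fold change of 0.36 (SE 0.08, adjusted p = 0.00538). IL10RA, the chain that pairs with IL10RB to bind IL-10, rose more, from 1.97 and 2.50 FPKM to 9.21 and 8.69 FPKM (log2 fold change 1.63, adjusted p = 3.15e-06). The level of IL10RB over IL10RA was therefore 8.50 and 7.36 in sh-NC and 2.47 and 2.64 in sh-CEBPG#3. The other partners of IL10RB and their ligands (IFNLR1, IL22RA1, IL20RA, IL10, IL22 and IL26) were not analysed here.

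IFNAR2, the chain with the higher affinity for type I interferon, had 14.5 and 16.0 FPKM in sh-NC and 17.8 and 19.6 FPKM in sh-CEBPG#3. All libraries of the knockdown were above those of the control, and the mean rose from 15.2 ± 1.08 to 18.7 ± 1.32 FPKM (SD, n = 2 each; log2 fold change 0.28, SE 0.09, adjusted p = 0.0284). This call was lost with no filter (adjusted p = 0.0744), with no variance trend (adjusted p = 0.0551), without sh-CEBPG#3 replicate 2 (0.21, adjusted p = 0.190) and without sh-NC replicate 1 (0.21, adjusted p = 0.101). When only the most abundant transcript stood for the gene, the log2 fold change was -0.07 (adjusted p = 0.846).

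Its 6 listed transcripts did not move alike. The most abundant, NM_207584, had 3.99 and 5.74 FPKM in sh-NC and 3.68 and 5.51 FPKM in sh-CEBPG#3, and the groups overlapped. NM_207585 had 3.16 and 3.40 FPKM in sh-NC and 4.25 and 4.59 FPKM in sh-CEBPG#3, and NM_001289125 had 3.14 and 3.08 FPKM against 4.17 and 4.89 FPKM. These rows were higher in both knockdown libraries, at 135% and 145% of the control. Of the less abundant rows, NM_001289126 and NM_001289128 were also higher without overlap and NM_000874 overlapped. IFNAR2 is known for transcripts that encode a long signalling form and forms without the signalling tail. Rows that share exons share reads, so the split between them is an estimate, and it was given without a test.

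IFNAR1, which binds TYK2, did not pass the test. It had 7.08 and 6.81 FPKM in sh-NC and 7.61 and 6.89 FPKM in sh-CEBPG#3, with overlapping groups and a log2 fold change of 0.05 (95% interval -0.15 to 0.26, adjusted p = 0.673). The level of IFNAR2 over IFNAR1 was 2.04 and 2.35 in sh-NC and 2.33 and 2.85 in sh-CEBPG#3, and these ranges overlapped.

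**Figure D1:**
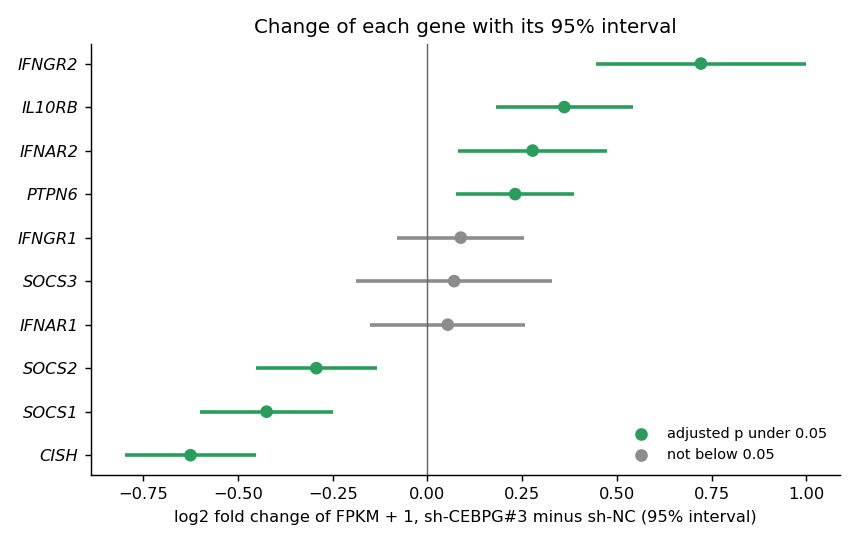
Log2 fold change of FPKM + 1 (horizontal axis, sh-CEBPG#3 minus sh-NC) for each of the 10 genes with its 95% interval from limma, in green where the adjusted p was under 0.05. The estimates run from -0.63 for CISH to 0.72 for IFNGR2, and the intervals of IFNAR1, IFNGR1 and SOCS3 include 0.

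IFNAR2, IL10RB, IFNAR1 and IFNGR2 lie side by side on chromosome 21, in this order, from 33229938 to 33437516 (GRCh38, 208 kb). Only 702 bp separate IFNAR2 from IL10RB. A readthrough gene IFNAR2-IL10RB shares 35727 bp with IFNAR2 and 30855 bp with IL10RB and was not analysed here. IFNAR1 lies 14212 bp beyond IL10RB and IFNGR2 a further 43017 bp. IFNAR1, which did not pass the test, thus lies between genes that rose. Within 500 kb on either side 12 other genes were tested, of which 2 rose, OLIG1 (log2 fold change 1.27, adjusted p = 2.82e-06) and TMEM50B (0.38), and 3 fell, ITSN1 (-0.66, adjusted p = 0.00184), DONSON (-0.37) and ATP5PO (-0.25). Of all genes tested 18.5% were called higher and 23.8% lower, so the counts of these neighbours lie near the shares of all genes. IFNGR1 lies elsewhere, on chromosome 6 from 137197484 to 137219385.

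Among the feedback genes CISH, the founding member of the SOCS family and an inhibitor of STAT5 signals, had the largest decrease. It had 19.5 and 19.7 FPKM in sh-NC and 12.37 and 12.38 FPKM in sh-CEBPG#3. The libraries of each group lay close together and the groups were far apart. The mean fell from 19.6 ± 0.165 to 12.4 ± 0.0101 FPKM (SD, n = 2 each), to 63.0% of the control, with a log2 fold change of -0.63 (SE 0.08, adjusted p = 0.000167). Transcript NM_145071 carried at least 97.5% of the level in every library. CISH (chromosome 3 from 50606489 to 50611774) shares 255 bp with MAPKAPK3, which had 41.8 and 43.3 FPKM in sh-NC and 65.2 and 63.7 FPKM in sh-CEBPG#3, the opposite direction.

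SOCS1, which blocks JAK kinases bound to interferon receptors, had 16.5 and 16.8 FPKM in sh-NC and 12.1 and 12.2 FPKM in sh-CEBPG#3. Both knockdown libraries were lower, with a mean of 12.1 ± 0.105 against 16.6 ± 0.174 FPKM (SD, n = 2 each; 73.0% of the control, log2 fold change -0.42, SE 0.08, adjusted p = 0.00190). Over the alternatives it ranged from -0.45 to -0.38. SOCS1 lies on chromosome 16 from 11254417 to 11256204, within the long noncoding gene LOC105371082, which was not analysed here.

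SOCS2, which dampens growth hormone and other STAT5 receptors, was the most abundant SOCS gene. It had 52.9 and 55.9 FPKM in sh-NC and 44.4 and 44.0 FPKM in sh-CEBPG#3. The groups did not overlap, and the mean fell to 81.2% of the control (log2 fold change -0.29, SE 0.07, adjusted p = 0.00846). The call was lost without sh-CEBPG#3 replicate 1 (adjusted p = 0.0624), without sh-CEBPG#3 replicate 2 (adjusted p = 0.0753) and with the most abundant transcript alone (adjusted p = 0.0566), at log2 fold changes from -0.36 to -0.29. SOCS2 (chromosome 12 from 93569969 to 93626236) shares 1430 bp with the antisense gene SOCS2-AS1, which had 6.65 and 9.38 FPKM in sh-NC and 4.28 and 5.17 FPKM in sh-CEBPG#3.

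The decrease of SOCS2 was uneven over its 6 transcripts. NM_001270468 had 29.2 and 30.5 FPKM in sh-NC and 25.0 and 21.4 FPKM in sh-CEBPG#3, and NM_003877 had 8.32 and 12.5 FPKM against 5.02 and 4.09 FPKM. These rows were lower in both knockdown libraries, NM_003877 at 43.8% of the control. NM_001270470 had the opposite direction, with 5.91 and 4.75 FPKM in sh-NC and 6.11 and 8.41 FPKM in sh-CEBPG#3, and the groups overlapped for the other 3 rows.

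SOCS3, the inhibitor of signals from gp130 and the G-CSF receptor, was low in all libraries. It had 2.17 and 2.40 FPKM in sh-NC and 2.65 and 2.25 FPKM in sh-CEBPG#3, and the groups overlapped (log2 fold change 0.07, 95% interval -0.19 to 0.33, adjusted p = 0.659). CISH and SOCS1 to SOCS7 together had 101 and 106 FPKM in sh-NC and 81.5 and 80.1 FPKM in sh-CEBPG#3. SOCS2 made up 52.2% and 52.8% of this sum in sh-NC and 54.5% and 54.9% in sh-CEBPG#3. The share of CISH was 19.3% and 18.7% in sh-NC and 15.2% and 15.5% in sh-CEBPG#3, that is, lower in both knockdown libraries. SOCS4, SOCS5, SOCS6 and SOCS7 were not called (log2 fold changes -0.26 to 0.02).

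PTPN6 (chromosome 12 from 6946577 to 6961316) had 94.1 and 99.5 FPKM in sh-NC and 116 and 112 FPKM in sh-CEBPG#3. Both knockdown libraries were higher, with a log2 fold change of 0.23 (SE 0.07, adjusted p = 0.0233), or 118% of the control. The call was lost without sh-CEBPG#3 replicate 1 (adjusted p = 0.210), without sh-CEBPG#3 replicate 2 (adjusted p = 0.117) and with no variance trend (adjusted p = 0.0686), and quantile normalization lowered the estimate to 0.14. NM_002831 carried at least 97.1% of the level in each library. The minor transcript NM_080549 had 2.43 and 2.85 FPKM in sh-NC and 1.47 and 0.779 FPKM in sh-CEBPG#3, lower in both, and its share of the gene fell from 2.59% and 2.86% to 1.27% and 0.698%.

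The other genes of the pathway were taken from lists, whose counts stand against 18.5% of all genes called higher and 23.8% called lower. Of the interferon ligands only IFNB1 was measured, at 0.0818 FPKM and a listed 0 in sh-NC and 0.0730 and 0.188 FPKM in sh-CEBPG#3, below the filter of the test. IFNG and the other 20 ligands were not analysed here. Of 10 JAK, STAT and IRF9 genes tested and reported here, 5 rose and 2 fell, with a median log2 fold change of 0.15. IRF9 (2.64) and STAT2 (1.51), which act together downstream of the type I interferon receptor, had the largest increases of these 10. JAK3 (0.93), JAK2 (0.34, adjusted p = 0.0184) and STAT3 (0.23) also rose. JAK1 (-0.07) and TYK2 (0.001) did not pass the test. STAT5B (-0.34, adjusted p = 0.00894) and STAT6 (-0.25) fell, whereas STAT5A had 0.07 (adjusted p = 0.642).

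Of 20 other SOCS box and attenuating genes tested, 4 rose, a share near that of all genes (18.5%), and none fell in limma, with a median of 0.01. SOCS5 (-0.26) had an unadjusted p of 0.0474 and an adjusted p of 0.0945 in limma and was not called. USP18, an enzyme that binds IFNAR2 and dampens type I interferon signals, stood far above the rest, with 2.58 and 3.02 FPKM in sh-NC and 16.6 and 15.9 FPKM in sh-CEBPG#3 (log2 fold change 2.19, adjusted p = 1.54e-07). CBL (0.46), SH2B3 (0.32) and ELOB (0.21), the latter a subunit of the ligase that the SOCS box recruits, were the others. Of 9 tested interferon target genes, 7 rose and none fell, with a median of 1.10, and CXCL10 (5.54), OAS1 (4.25), ISG15 (4.10) and IFIT1 (4.10) rose most. In sh-NC, CXCL10 (0.267 and 0.403 FPKM) and IFIT1 (0.171 and 0.309 FPKM) lay below the 0.5 FPKM of the filter. These genes entered the test only through sh-CEBPG#3 (64.9 and 57.5 FPKM for CXCL10, 20.9 and 19.5 FPKM for IFIT1). Their calls as higher, which the counts include, were thus nearly fixed by the filter. IRF1, a transcription factor induced by interferon gamma, was not called (0.12, adjusted p = 0.265).

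The receptors and targets of STAT5 gave a mixed picture beside the decrease of CISH and SOCS2. FLT3 had 67.6 and 75.0 FPKM in sh-NC and 66.0 and 62.8 FPKM in sh-CEBPG#3 and was not called (log2 fold change -0.14, adjusted p = 0.161). Of 8 receptors tested, CSF2RB (0.68), EPOR (0.35) and IL3RA (0.28) rose and IL7R (-0.76) fell, with a median of 0.07. Of 12 STAT5 targets tested, 5 rose and 5 fell, with a median of -0.08. PIM1, a survival kinase, had 58.5 and 60.9 FPKM in sh-NC and 21.4 and 19.6 FPKM in sh-CEBPG#3 and fell most (log2 fold change -1.496, adjusted p = 5.49e-07). ID1 (-1.13), MYC (-0.75), CCND1 (-0.71) and OSM (-0.63) were the other lower targets. BCL6 (0.69), PIM3 (0.49), MCL1 (0.48), BCL2L1 (0.27) and CCND2 (0.26) were higher. MYC and several others are also targets of many other factors.

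The genes with the profile most like those of IFNGR2 and CISH over the 4 libraries were found by the Euclidean distance between centred log2(FPKM + 1) values. For CISH these were GSE1 (distance 0.009, log2 fold change -0.62), INTS13 (0.018, -0.64) and WDR3 (0.019, -0.63). For IFNGR2 they were SNORD2 (distance 0.075, log2 fold change 0.78), SNHG9 (0.093, 0.65) and LOC729296 (0.109, 0.80), of which SNORD2 had 10.2 and 7.73 FPKM in sh-NC and 14.8 and 17.3 FPKM in sh-CEBPG#3. SNORD2, SNHG9 and LOC729296 all shared with IFNGR2 the order of the libraries within each group. The choice by distance over these same libraries favours such a likeness. With 4 libraries in 2 groups many genes have like profiles, and this is a description only.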

How the data were processed

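RNA-seq of MV4-11 cells was analysed from the deposited table of FPKM, a length- and depth-scaled expression value, with 1 value per RefSeq transcript and library, made by the authors from filtered and mapped reads. The submitters' processing notes name HISAT2 2.0.5 and hg38. The program behind the FPKM values, the annotation release and the strand setting are not given in the sources used here. Of 28780 listed transcripts 199 have no value. Values were summed by gene symbol, and 12142 genes whose mean reached 0.5 FPKM entered limma 3.58.1 in R 4.3.3 as log2(FPKM + 1) (lmFit, then eBayes with a trend), with Benjamini-Hochberg adjustment over all genes tested. This scale understates the change of low genes. The DESeq2 analysis of the study needs counts and was not repeated. FPKM values carry no counts, so the depth is unknown and no detection limit is given. The smallest p of an exact permutation test (two-sided) for 2 against 2 libraries is 0.333, so the p-values rest on limma's variance model. The fit was tested on simulated data.

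Groups and replicate numbers come from the sample titles. The genes, lists and tests were chosen with earlier results of these data known. Named were the 10 genes, CEBPG, fixed signalling genes, up to 4 called genes per list and direction with the largest changes, and for the largest increase and decrease the 3 genes with the most similar profile. STAT3, OSM, CCND2, IRF1, SOCS4 to SOCS7, the marker genes and the genes that overlap or surround the 10 genes fall outside this rule and were named after their values were seen. Coordinates and promoters come from RefSeq (GRCh38.p14), read with Python 3.11.15. Alternatives were other pseudocounts (0.1 and 0.01), filters, scalings, transcript choices, no trend, the replicate block and each library left out. Some genes of the lists are not reported here, and no count or sum of a list includes them.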

Additional observations from a re-analysis of the deposited data

How the results depend on the processing

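Of 150 values of the 10 genes under the 15 alternatives, 134 kept their direction and their side of the threshold, 12 were weaker, 1 was stronger and 3 reversed. The reversals were IFNAR2 with its most abundant transcript alone (-0.0703) and, with each library left out in turn, IFNAR1 (-0.00979 to 0.12) and SOCS3 (-0.0132 to 0.15), which were not called. Left-out fits assume that the lone library of a group varies like the others. With each library left out 4 to 7 of the 10 genes were called, against 7, and 4 were called without sh-CEBPG#3 replicate 2, where 31.9% of all genes were called (42.2% with all libraries). No gene passed the 2-fold threshold under any alternative. Of 69 pathway genes tested 41 were called, and 28 to 45 under the alternatives, with 28 for the most abundant transcript, where 23.9% of all genes were called. The deviations of equally numbered libraries from the group mean had a correlation of 0.061, which does not pair them. With the replicate block 5 of the 10 genes were called, against 39.2% of all genes. IFNAR2 (adjusted p = 0.0522) and PTPN6 (adjusted p = 0.117) were lost there. Scalings moved the median of all genes to between -0.061 and -0.001. The cause was not tested. Without counts, low values such as those of SOCS3 and IFNB1 cannot be weighted by depth.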

Other observations

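PTPN6 acts on receptors whose tails recruit it, and 9 of the 15 listed docking receptors and relatives were tested. Of these, 7 rose and 1 fell, against 18.5% of all genes called higher and 23.8% called lower, with a median log2 fold change of 0.57 against -0.04 over all genes tested. PILRA, a paired inhibitory receptor of myeloid cells, had 1.91 and 1.89 FPKM in sh-NC and 12.2 and 8.08 FPKM in sh-CEBPG#3 (log2 fold change 1.92, adjusted p = 9.22e-06). PECAM1, an adhesion receptor, had 18.5 and 21.8 FPKM in sh-NC and 43.4 and 40.8 FPKM in sh-CEBPG#3 (1.03, adjusted p = 1.65e-05). SIRPA, which binds CD47, rose by 0.64 and CD300A by 0.60 on the log2 scale. LAIR1, a collagen receptor, was lower, with 6.98 and 10.7 FPKM against 5.31 and 5.51 FPKM (-0.59, adjusted p = 0.0106).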
